A study of Mus musculus with 11 samples.

Results

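The regions described here are stretches of chromatin that carried H3K36me3 in activated satellite cells (ASCs) and lay far from any H3K36me3 in quiescent satellite cells (QSCs). They are the H3K36me3 peaks of ASCs that had a score of at least 100 and lay 10 kb or more from every H3K36me3 peak of QSCs, and they are called gained peaks. Of the 23163 ASC peaks with a score of at least 100, 7305 were gained (31.5%), out of 42880 H3K36me3 peaks of any score in ASCs and 212879 peaks in the 8 peak lists of the series. The members were chosen by their H3K36me3 score in ASCs and their distance from H3K36me3 of QSCs, so the number of gained peaks, their distance from QSC peaks and their scores are descriptions and not findings. H3K4me3 and H3K27me3 were not used by the rule.

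Satellite cells are the muscle stem cells that lie beneath the basal lamina of the myofiber. They rest in uninjured muscle and enter the cell cycle when activated, giving rise to myoblasts that go on to differentiate. H3K36me3 is laid down in the body of a gene by SETD2, a methyltransferase that travels with the elongating RNA polymerase II, so a long run of the mark usually follows a transcribed gene. H3K4me3 marks promoters and TSSs, including promoters of genes that are not transcribed, and H3K27me3 is set by the Polycomb complex PRC2 at repressed genes.

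All groups came from hindlimb muscles of male C57BL/6 mice. QSCs were sorted as VCAM+/CD31-/CD45-/Sca1- cells from uninjured mice aged 2 to 3 months (young), with a further pair of H3K4me3 and H3K27me3 libraries from mice aged 22 to 24 months (old). According to the sample descriptions the ASCs were young QSCs that had been sorted and then cultured on an extracellular matrix with horse serum for 3 days, whereas the paper speaks of cells from injured muscle, so whether the ASCs stand for activation in a dish or in the animal is not settled here. Sorted cells were crosslinked and frozen until enough had been collected, so each library is a pool. There was 1 library for each cell state and mark, and 5 µg of antibody went into each ChIP. QSCs and ASCs below are from young mice unless old is stated.

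Each list gives the position of a peak in the mouse assembly mm9 and a score. The score was taken to be the negative log10 of the peak's p-value times 10, as MACS writes it, which was inferred from the peak names and the range of the values and is not stated by a source used here. A score of 100 would then stand for a p-value of 1e-10, and scores are capped near 3100. A score depends on the depth of its library, so scores of different lists are given side by side and not compared. Without replicates no test between cell states was possible, and the 95% intervals given with shares (Wilson) and medians (order statistics) cover counting error only. The sequencing depth of each library is unknown. The H3K36me3 list of ASCs held 42880 peaks and that of QSCs 20399, so a change in the mark and a deeper or cleaner ASC library cannot be told apart. Gene positions in mm9 were not at hand, so the regions are given by their coordinates and no gene is assigned to them.

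The gained peaks covered 13.2 Mb. They were 480 to 29476 bp wide, with a median of 1532 bp, and their median score was 154 with a highest of 2406. The other 15858 ASC peaks with a score of at least 100 were a median of 1851 bp wide and scored a median of 206. The share of peaks that were gained was 42.1% among scores from 100 to 150, 28.4% among scores from 200 to 300 and 6.57% (46 of 700) among scores of 1000 or more. Most gained peaks were thus modest in score, with a small group among the strongest peaks of the list.

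The gained peaks lay a median of 38723 bp from the nearest QSC H3K36me3 peak, and up to 2010040 bp away. Of the 7305, 5349 (73.2%) were 20 kb or more away, 1751 (24.0%) 100 kb or more and 151 (2.07%) 500 kb or more. In the opposite direction, 1260 (15.7%) of the 8014 H3K36me3 peaks of QSCs that reached this score lay 10 kb or more from every ASC peak. Under the same rule 3341 of 23839 H3K4me3 peaks (14.0%) and 7695 of 18567 H3K27me3 peaks (41.4%) of ASCs were far from the QSC peaks of their mark. When the ASC H3K36me3 list was cut down to the 20399 peaks of the QSC list by keeping the highest scores, 6058 of them were gained. This cut only raised the lowest ASC score from 100 to 113 and left the QSC list as it was. It therefore does not test the depth of the libraries.

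Both thresholds fell where peaks were dense. The gained peaks closest to the score limit were chr16:17358507-17359830 and chr19:45848088-45849442, both at a score of 100 when rounded, and the nearest below it were chr4:69977812-69978866 at 99.99 and chr9:35083501-35084383 at 99.98. Scores from 100 to 110 held 1003 gained peaks, and scores from 90 to 100 held 1129 peaks at the same distance. By distance, chr11:113537386-113539529 was just inside at 10013 bp and chr7:107698201-107699382 just outside at 9999 bp, and 274 gained peaks lay at 10 to 11 kb against 307 peaks at 9 to 10 kb.

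Merging gained peaks less than 5 kb apart gave 4289 gained domains with a summed length of 17.8 Mb. Their median length was 1913 bp (interval 1866 to 1980 bp), and 2791 of them (65.1%) were a single peak. A small number were long, since 394 (9.19%) reached 10 kb, 74 reached 20 kb and 8 reached 50 kb, and the longest, of 233065 bp, was longer than any of the other domains. Domains made in the same way from the other 15858 peaks numbered 6436, had a median length of 4642 bp (4412 to 4864 bp) and a longest of 111130 bp, and 1734 of them (26.9%) reached 10 kb. Part of this difference is fixed by the rule, which leaves out the pieces of a run that come near a QSC peak.

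**Figure D1:**
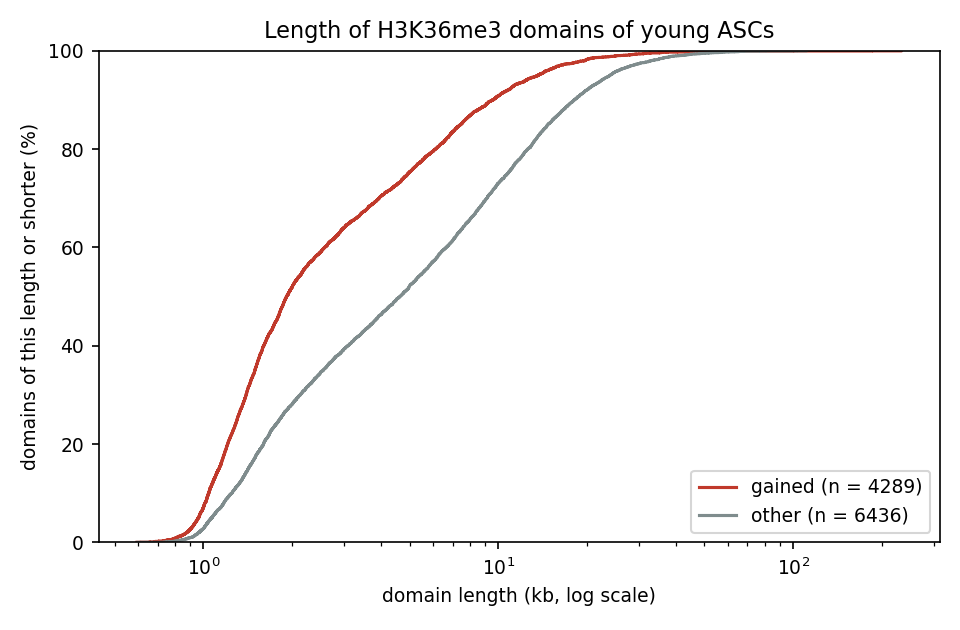
Cumulative share of H3K36me3 domains of young ASCs (y axis, %) by length (x axis, kb, log scale), for the 4289 gained domains and the 6436 other domains. The gained curve lies to the left, with a median of 1913 bp against 4642 bp, and its tail reaches 233065 bp.

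To see how much of a run the rule leaves out, every ASC H3K36me3 peak of any score was joined to its neighbours less than 5 kb away. The gained peaks then fell into 3909 blocks with a median length of 6478 bp and a longest of 251811 bp. Of these blocks, 3203 (81.9%) had no QSC H3K36me3 peak within 10 kb, 448 (11.5%) held one inside and 258 (6.60%) had one less than 10 kb beyond an end. The blocks with a QSC peak inside held 1036 of the gained peaks (14.2%). Those gained peaks were therefore parts of runs that already carried some H3K36me3 in QSCs.

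The gained domains were spread over chromosomes 1 to 19, from 138 domains on chromosome 19 to 352 on chromosome 2. Their share of all domains ran from 29.2% (238 of 816) on chromosome 7 to 51.1% (187 of 366) on chromosome 13. Chromosome X held 19 gained domains of 29 (65.5%, interval 47.3% to 80.1%) and chromosome Y held 0. The median gap from a gained domain to the next was 24964 bp, and 1945 of the 4289 (45.3%) had another within 20 kb.

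The next question was whether H3K4me3 stood near the gained domains before activation. Of the 4289, 922 (21.5%, interval 20.3% to 22.8%) had an H3K4me3 peak of QSCs on them or within 5 kb, 487 (11.4%, 10.4% to 12.3%) had one in ASCs but not in QSCs, and 2880 (67.1%, 65.7% to 68.5%) had none within 5 kb in either state. Over all 10725 gained and other domains these shares were 36.4%, 10.1% and 53.5%. An H3K4me3 peak that was there already was therefore less frequent at gained domains than at the other domains (46.3%, 2982 of 6436). The other domains are near H3K36me3 of QSCs by the rule, and neighbouring domains can be pieces of the same run. The intervals are therefore no test of this difference. New H3K4me3 was at 11.4% of the gained and 9.26% of the other domains (596 of 6436), but a domain can be of this class only where QSCs had no H3K4me3. Among domains without H3K4me3 of QSCs it was at 14.5% (487 of 3367, 13.3% to 15.7%) of the gained and 17.3% (596 of 3454, 16.0% to 18.6%) of the other domains. Within this window H3K4me3 of the quiescent state was more frequent than new H3K4me3. When only H3K4me3 overlapping the domain was counted, 2.19% had it in QSCs and 5.43% in ASCs but not in QSCs. That 5.43% includes domains with a QSC peak within 5 kb. Of the 487 domains new by the 5 kb window, 107 were overlapped by ASC H3K4me3, against 94 gained domains overlapped by that of QSCs.

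The median distance from a gained domain to the nearest H3K4me3 peak was 16224 bp for QSC peaks and 10700 bp for ASC peaks, against 6214 and 4762 bp for the other domains. H3K4me3 of old QSCs stood within 5 kb of 937 gained domains (21.8%), close to the 922 counted with young QSCs, and of 34.7% of all domains. Within 50 kb, 84.7% of the gained domains had an H3K4me3 peak in QSCs and 91.0% in ASCs. Direct overlap was rare, with 94 gained domains (2.19%) touching an H3K4me3 peak of QSCs and 308 (7.18%) one of ASCs. Among the other domains 16.4% touched one of QSCs and 18.1% one of ASCs. Measured by length, H3K4me3 of QSCs covered 0.538% of the gained and 3.18% of the other domains, and H3K4me3 of ASCs 2.39% and 4.03%. The domains of the 1260 QSC peaks far from ASC peaks looked different, since 553 of these 1158 domains (47.8%) overlapped H3K4me3 of their own state.

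**Figure D2:**
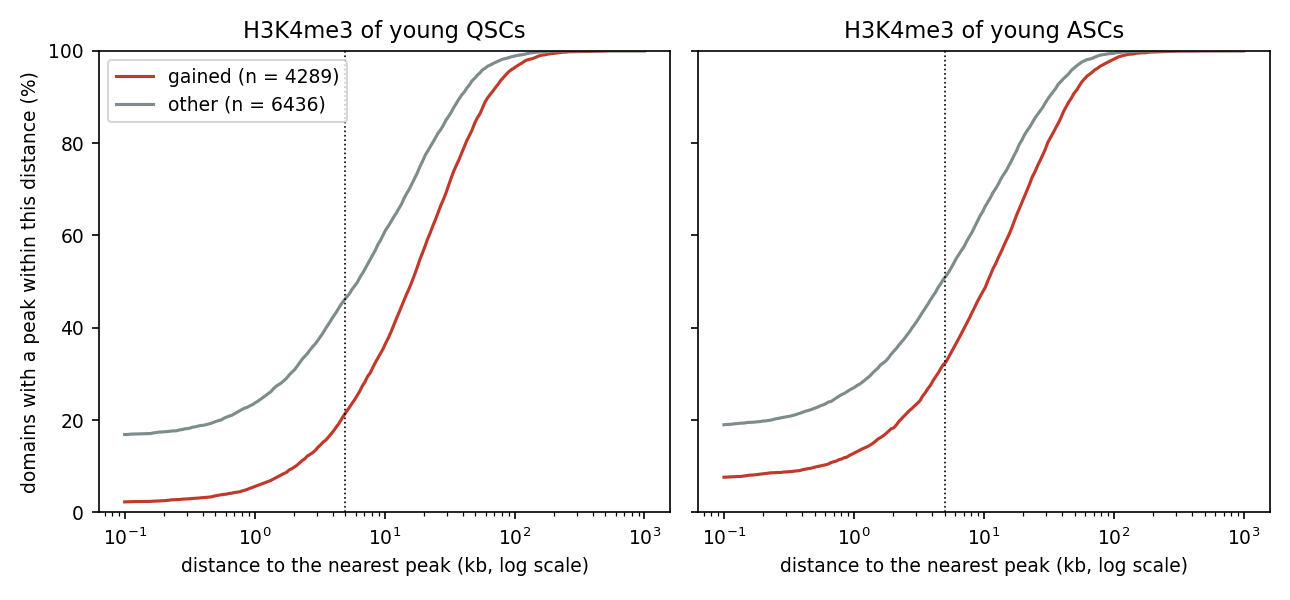
Cumulative share of H3K36me3 domains (y axis, %) with an H3K4me3 peak within a given distance (x axis, kb, log scale), for H3K4me3 of young QSCs and of young ASCs, in gained and other domains. The dotted line marks 5 kb, where the gained curve reads 21.5% for QSCs and 32.3% for ASCs.

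Longer gained domains had H3K4me3 nearby more often. The searched stretch is the domain with 5 kb on either side, so it grows with length, and its part in this rise was not tested. An H3K4me3 peak of QSCs was near 17.3% of the gained domains under 2 kb (385 of 2227) and 37.8% of those of 20 kb or more (28 of 74, interval 27.6% to 49.2%). New H3K4me3 went from 9.65% to 21.6% (16 of 74) over the same range, and the share with none from 73.1% to 40.5% (30 of 74). At every length the share with H3K4me3 in QSCs was lower at gained than at other domains, which went from 33.9% to 61.2%. Among domains without H3K4me3 of QSCs, new H3K4me3 was at 11.7% of the gained and 12.2% of the other domains under 2 kb. Among those of 20 kb or more it was at 34.8% (16 of 46) of the gained and 32.2% (64 of 199) of the other domains.

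**Figure D3:**
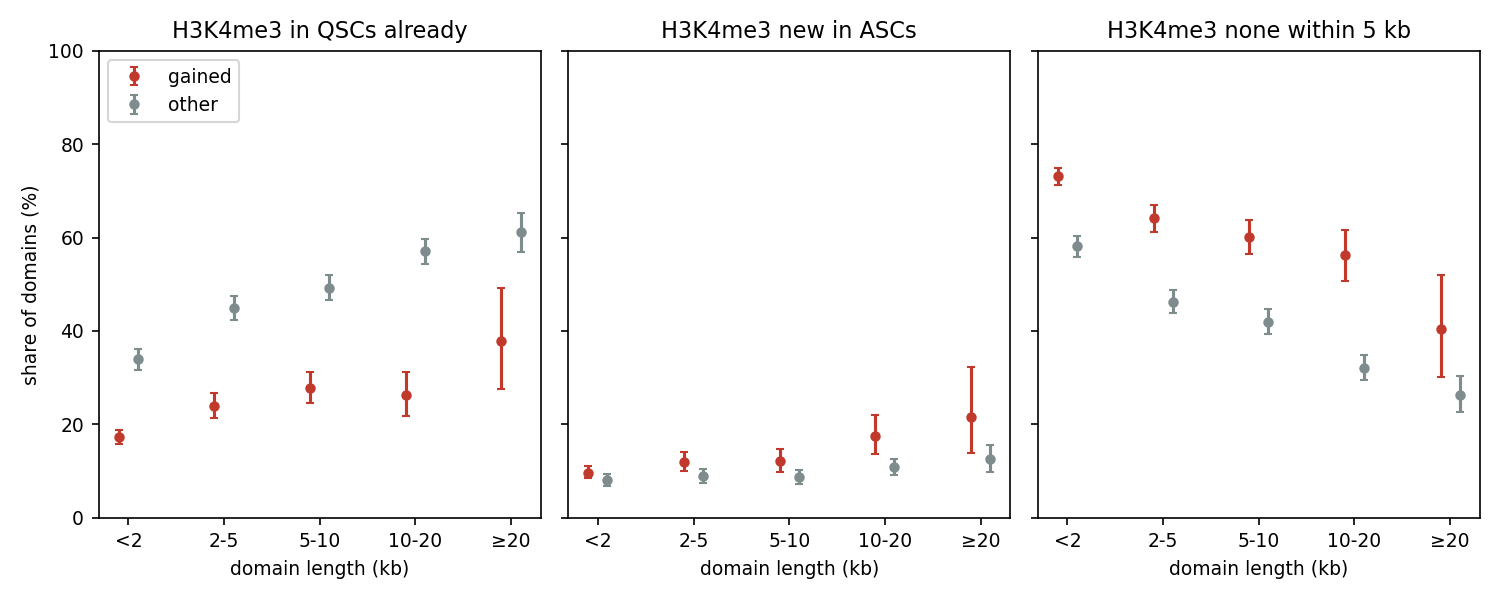
Share of H3K36me3 domains (y axis, %) by domain length (x axis, kb) with H3K4me3 already in young QSCs, new in young ASCs, or absent within 5 kb, in gained and other domains. Points are shares and bars are Wilson 95% intervals. The share of gained domains with H3K4me3 in QSCs goes from 17.3% to 37.8% with length and stays below that of the other domains.

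The H3K4me3 peaks that stood near gained domains in QSCs were high in the QSC list, and most of these domains also had H3K4me3 nearby in ASCs. Of the 922 domains of this class, 899 (97.5%, 96.3% to 98.3%) also had H3K4me3 within 5 kb in ASCs, though not always at the site of the QSC peak. The matching share of the other domains was not counted, so this share is not shown to be particular to gained domains. Taking the highest-scoring peak of each of the 922 gained domains gave 908 QSC peaks. They were a median of 1728 bp wide and scored a median of 2149, against 1362 bp and 587 over the whole QSC list. This was not particular to gained domains, since at the sites of a single peak in each state the QSC medians were 1768 bp and 2273 near gained domains and 1842 bp and 2263 near the others. In ASCs the highest-scoring peaks of these domains, chosen separately, numbered 887. They were a median of 2551 bp wide, and 318 were wider than 3 kb, against 51 in QSCs. The highest-scoring QSC peak lay wholly outside the domain in 846 of the 922 (91.8%), across one of its ends in 45 (4.88%) and inside it in 31 (3.36%). Among the other domains with H3K4me3 in QSCs it lay outside in 2327 of 2982 (78.0%), across an end in 9.12% and inside in 12.8%.

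H3K4me3 at these sites was broader in ASCs than in QSCs. Sites where a single QSC peak overlapped a single ASC peak, and neither touched another, were compared within 5 kb of a gained domain. Of 802 such sites, 736 (91.8%, 89.7% to 93.5%) were wider in ASCs, with a median width that went from 1768 to 2480 bp and a median ratio of 1.33 (1.31 to 1.36). Near the other domains 1741 of 2183 sites (79.8%, 78.0% to 81.4%) were wider, with a ratio of 1.21 (1.19 to 1.22), and over all 17567 sites of the genome 61.6% were, with a ratio of 1.08. Among sites with a QSC score of at least 1000 the shares were 95.9% near gained domains, 84.9% near other domains and 73.5% over the genome. The widths come from 1 library of each state, and the whole ASC list also had more peaks at the score cap (10369 against 3525), so the depth of the libraries moves with this result and its part was not tested.

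The new H3K4me3 peaks were of mixed strength. Of the 487 domains with new H3K4me3, the highest-scoring ASC peak within 5 kb reached a score of 100 in 303 (62.2%), was at the cap in 82 and was wider than 3 kb in 76 (15.6%). These 468 peaks were a median of 914 bp wide and scored a median of 150, against 1150 bp and 342 over the whole ASC list. In 232 of the 487 domains (47.6%) the nearest H3K4me3 peak of QSCs was 20 kb or more away, and in 83 (17.0%) 50 kb or more. The median domain length was 3068 bp where the best new score was at the cap, 2242 bp where it was from 100 to the cap (221 domains) and 2306 bp where it was under 100. An H3K4me3 peak of ASCs overlapped the domain itself in 107 of the 487 (22.0%).

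Of the 2880 gained domains with no H3K4me3 within 5 kb, 1321 (45.9%) had none within 20 kb and 337 (11.7%) none within 50 kb in either state. Their median length was 1791 bp, against 2669 bp with H3K4me3 already in QSCs and 2312 bp with new H3K4me3.

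The longest gained domain was chr2:76560582-76793646, a run of 38 peaks over 233065 bp, of which 89.2% lay in peaks. It held the highest-scoring gained peak, chr2:76560582-76566038 at 2406, and also the fifth highest, chr2:76718937-76731602 at 2109. The nearest QSC H3K36me3 peak was 10.2 kb away, just beyond the limit of the rule, and ASC H3K36me3 outside the domain continued past the left end to that peak. No H3K4me3 peak stood within 5 kb in QSCs or ASCs, the nearest being 46.3 kb and 24.1 kb away, and no H3K27me3 peak of young cells touched it. ASC H3K36me3 resumed 5713 bp past the right end, though, and an ASC H3K36me3 peak lay 1164 bp from that nearest ASC H3K4me3 peak, which had a score of 3100.

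The second longest, chr2:52000800-52185983, was 185184 bp long and made of 46 peaks, the most of any gained domain. Its strongest peaks are among the 5 highest-scoring gained peaks, chr2:52029051-52035583 at 2174 and chr2:52164708-52173817 at 2145. The nearest H3K36me3 and H3K4me3 peaks of QSCs were 197 kb and 71.4 kb away. In ASCs an H3K4me3 peak of 3653 bp with a score of 3184 stood 2495 bp beyond the right end, and weaker peaks with scores of 281 and 52 lay inside that end. No H3K27me3 peak was listed on the domain in QSCs or ASCs. H3K36me3 over the whole length and a strong H3K4me3 peak by one end were thus both listed in ASCs and not in QSCs.

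The third, chr6:84009187-84109204, was 100018 bp long with 23 peaks and a best score of 631. It carried 2 H3K4me3 peaks in QSCs, with scores of 179 and 215, and 5 in ASCs, with scores of 56 to 306. None of the ASC peaks lay on the site of the QSC peak with a score of 215. The domain also carried H3K27me3 over 10.9% of its length in QSCs and 13.7% in ASCs, where the strongest peaks scored 683 for QSCs and 1485 for ASCs. An ASC H3K27me3 peak with a score of 376 lay on the site of that QSC H3K4me3 peak, where no QSC H3K27me3 peak was listed. H3K36me3 and H3K27me3 were therefore listed together over part of this domain in ASCs, and a pool of cells does not show whether they sat in the same cells.

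The fourth, chr11:58859207-58922966 (63760 bp), held the third highest gained peak, chr11:58887784-58902922, which was 15139 bp wide with a score of 2157. The nearest QSC H3K36me3 peak was 13.0 kb away. Joined to all ASC H3K36me3 peaks less than 5 kb apart, the run reached 27631 bp beyond the right end and held 2 QSC H3K36me3 peaks. Of the 10 longest gained domains, this one and the longest were in a block with QSC H3K36me3 inside. An H3K4me3 peak of QSCs with a score of 194 stood 317 bp from its left end and one of ASCs with a score of 142 at 416 bp. A further ASC peak inside the domain, of 1057 bp with a score of 151, had no counterpart in QSCs. H3K27me3 covered 0% of the domain in QSCs and 16.4% in ASCs, in 10 peaks with scores of 72 to 378. Past the right end, though, the joined run overlapped QSC peaks of both H3K4me3 and H3K27me3. These included H3K4me3 at 88502 to 90949 bp and H3K27me3 at 88468 to 91965 bp from the left end of the domain. An ASC H3K4me3 peak lay there at 88655 to 93860 bp.

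**Figure D4:**
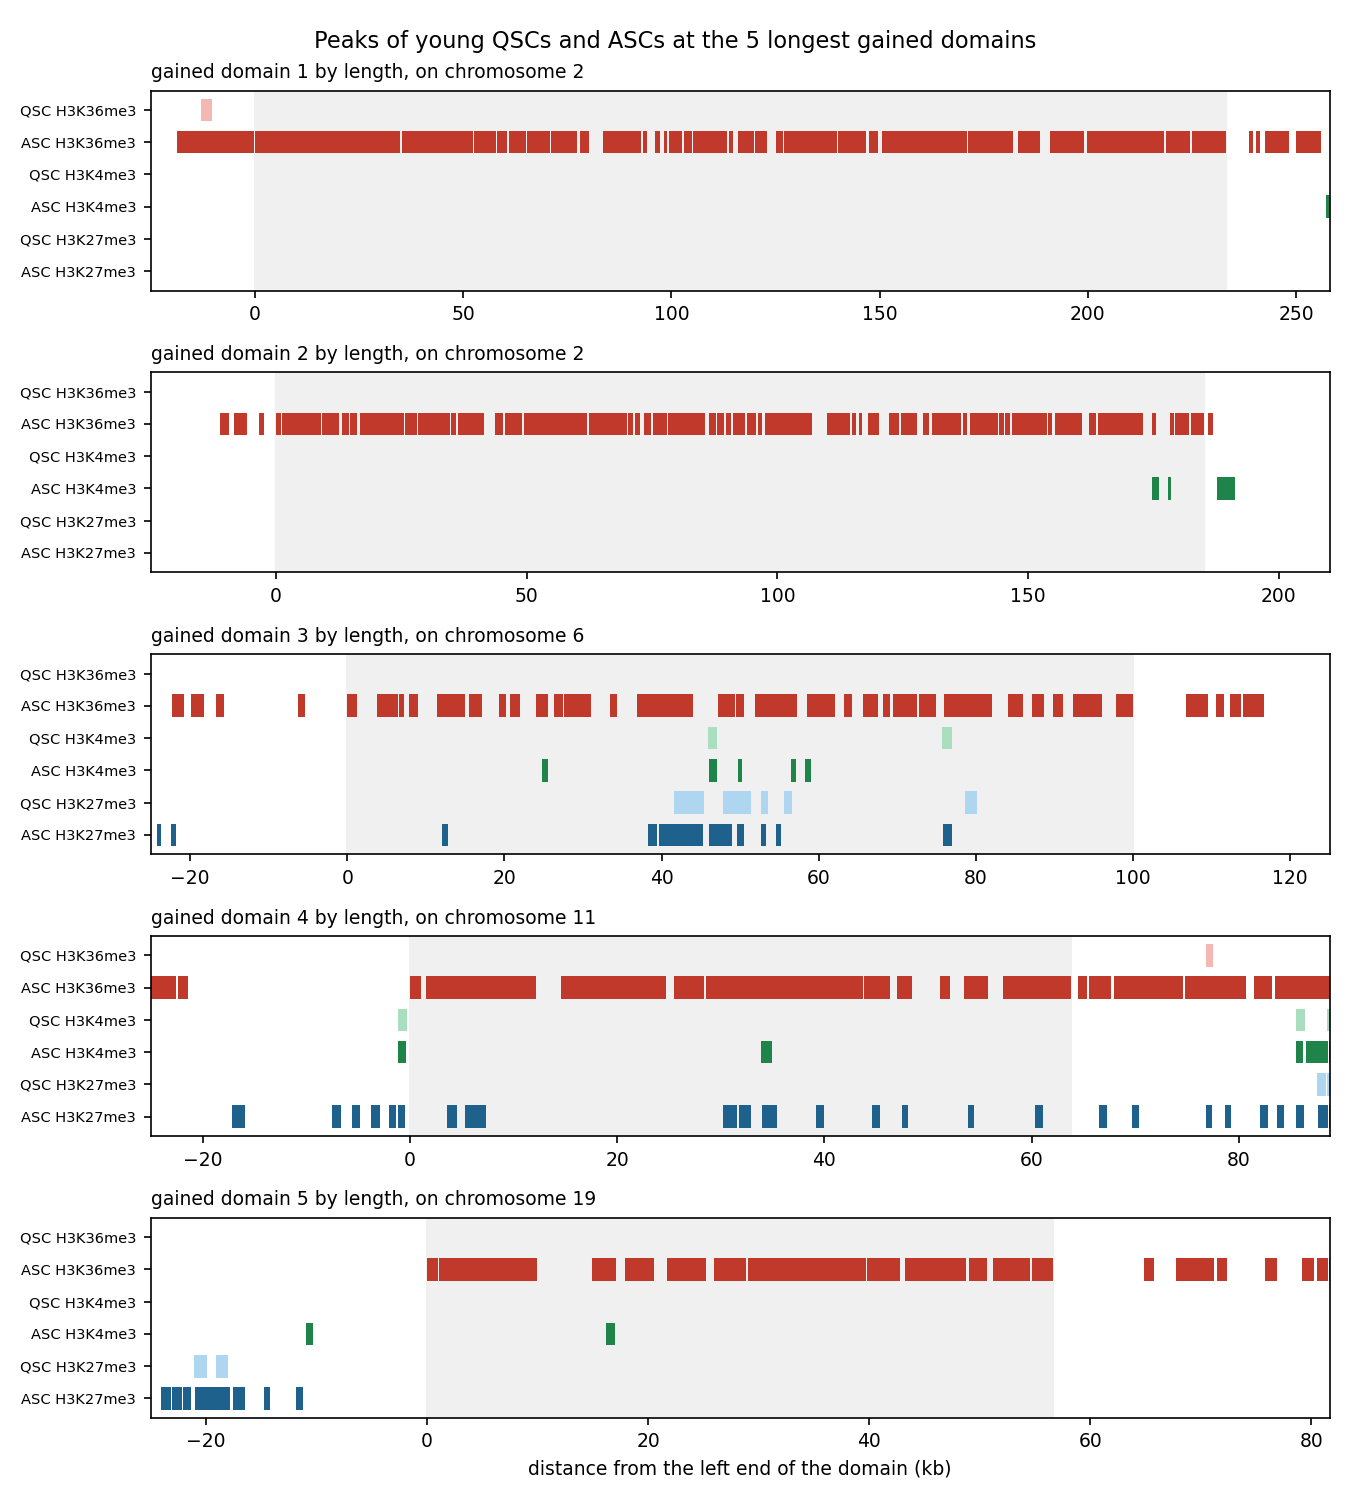
Peaks of H3K36me3, H3K4me3 and H3K27me3 in young QSCs (light) and ASCs (dark) at the 5 longest gained domains, by distance from the left end of the domain (x axis, kb). Grey marks the domain. The second domain has H3K4me3 at its right end in ASCs and none in QSCs, and the third carries H3K27me3 in both states.

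Of the 4 other domains of 50 kb or more, 3 had new H3K4me3. In chr19:37971958-38028620 (56663 bp, 14 peaks) the new H3K4me3 was a single weak peak inside, with a score of 53, and the nearest QSC H3K4me3 was 82.4 kb away. In chr1:137965112-138016964 (51853 bp, 15 peaks) a new peak with a score of 208 lay 2410 bp from the left end. The nearest QSC H3K4me3 was only 10.4 kb away, past the right end, and another QSC peak lay at -17892 to -16570 bp from the left end. In chr5:36359388-36409672 (50285 bp, 11 peaks) a new peak with a score of 246 lay 2804 bp from the right end, and the nearest QSC H3K4me3 was 45.3 kb away. The remaining one, chr7:119446129-119502692 (56564 bp, 12 peaks), had 1 H3K4me3 peak in QSCs, with a score of 159, and 4 on the domain in ASCs, with a highest score of 804.

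A pair of shorter domains shows the other patterns with strong H3K4me3. At chr4:32749499-32797025 (47527 bp) an H3K4me3 peak of 1458 bp and a score of 1840 in QSCs was 2558 bp wide with a score of 3100 in ASCs, to the left of the domain in both states. At chr16:92781934-92822340 (40407 bp) an H3K4me3 peak of 5095 bp at a score of 3100 lay across the right end in ASCs, and the nearest QSC H3K4me3 peak was 82.3 kb away. Among the domains without H3K4me3, chr4:123148821-123191522 (42702 bp) and chr9:112011982-112048008 (36027 bp) were 43.7 kb and 38.8 kb from the nearest H3K4me3 peak of ASCs. Next in length came chr3:97493659-97529167 (35509 bp), with peaks 7.49 kb away in QSCs and 7.75 kb away in ASCs, and chr8:15098184-15133289 (35106 bp), with the nearest 23.8 kb away in ASCs. ASC H3K36me3 was also listed outside each of these domains without H3K4me3, to the left of chr8:15098184-15133289 and on both sides of the others. By chr8:15098184-15133289, an ASC H3K36me3 peak outside the domain overlapped that nearest ASC H3K4me3 peak. The distances are thus measured from the gained domain and not from all ASC H3K36me3 around it.

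H3K27me3 of QSCs was rare at gained and at other domains. It shared at least 1 bp with 25 of the 4289 gained domains (0.583%, 0.395% to 0.859%), against 0.998% of all gained and other domains and 82 of the 6436 other domains (1.27%, 1.03% to 1.58%). Gained domains were shorter than the others, and the order of the shares depended on the measure. H3K27me3 of QSCs covered 0.376% of the summed gained length and 0.269% of that of the other domains, and it touched 39 of the 7305 gained peaks (0.534%, 0.391% to 0.729%) and 91 of the 15858 other peaks (0.574%, 0.468% to 0.704%). Among domains under 2 kb it was on 10 of 2227 gained (0.449%) and 1.72% of other domains, among those of 10 to 20 kb on 6 of 320 gained (1.88%) and 0.983% of other domains, and among those of 20 kb or more on 4 of 74 gained (5.41%) and 2.34%. Within 5 kb the count was 69 gained domains (1.61%, 1.27% to 2.03%), against 245 of the 6436 other domains (3.81%, 3.37% to 4.30%). The median distance from a gained domain to H3K27me3 of QSCs was 148011 bp, against 96010 bp for the other domains. In ASCs, whose H3K27me3 list was longer (38307 against 11658 peaks), 61 gained domains (1.42%, 1.11% to 1.82%) overlapped H3K27me3, against 5.03% of all domains and 7.44% (6.83% to 8.11%) of the others, and by length it covered 0.561% of the gained and 1.02% of the other domains. Of those 61, 43 had none in QSCs. H3K27me3 of old QSCs overlapped 75 gained domains (1.75%, 1.40% to 2.19%), against 4.90% of all domains and 450 of the others (6.99%), from a list of 17635 peaks.

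The 25 gained domains on quiescent H3K27me3 had a median length of 2697 bp. H3K4me3 was already near 14 of them in QSCs, was new in ASCs near 8 and was absent near 3. H3K27me3 of ASCs lay somewhere on 18 of the 25, sharing at least 1 base with the QSC peaks in 15 and none in 3. It covered fewer bases in ASCs than in QSCs in 18 and more in 7, and the sum over the 25 went from 67075 bp in QSCs to 47763 bp in ASCs, of a summed length of 328890 bp. The domains were picked for their QSC H3K27me3, so a lower value in ASCs is partly set by that choice.

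Of the 25, 5 lay within a 174-kb stretch, chr12:103426244-103600106, so the 25 are not independent places. The longest of these, chr12:103546796-103576314 (29519 bp), had H3K27me3 over 40.2% of its length in QSCs and 2.20% in ASCs, with no base in common. Its H3K4me3 was new by the 5 kb window, with scores up to 131. Further out, a QSC H3K4me3 peak lay at -26146 to -24641 bp from the left end of the domain. An ASC H3K4me3 peak lay over that site at -26441 to -20411 bp, and further ASC H3K4me3 peaks lay between it and the domain. At chr11:82732825-82756776 (23952 bp) a 5457-bp H3K4me3 peak at a score of 3100 was already present in QSCs, and H3K27me3 covered 55.7% in QSCs and 36.1% in ASCs. The H3K4me3 peak was narrower in ASCs, at 3831 bp with a score of 3100. An ASC H3K27me3 peak of 5234 bp with a score of 1320 lay across it. At chr11:66895492-66915249 (19758 bp) H3K27me3 covered 12.9% in QSCs and 12.2% in ASCs, with 0 bases in common, and a new H3K4me3 peak of 4349 bp with a score of 2958 stood 481 bp from the left end. The last of the 5 longest, chr19:56391887-56440573 (48687 bp), had H3K27me3 over 1.45% in QSCs and 4.10% in ASCs.

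**Figure D5:**
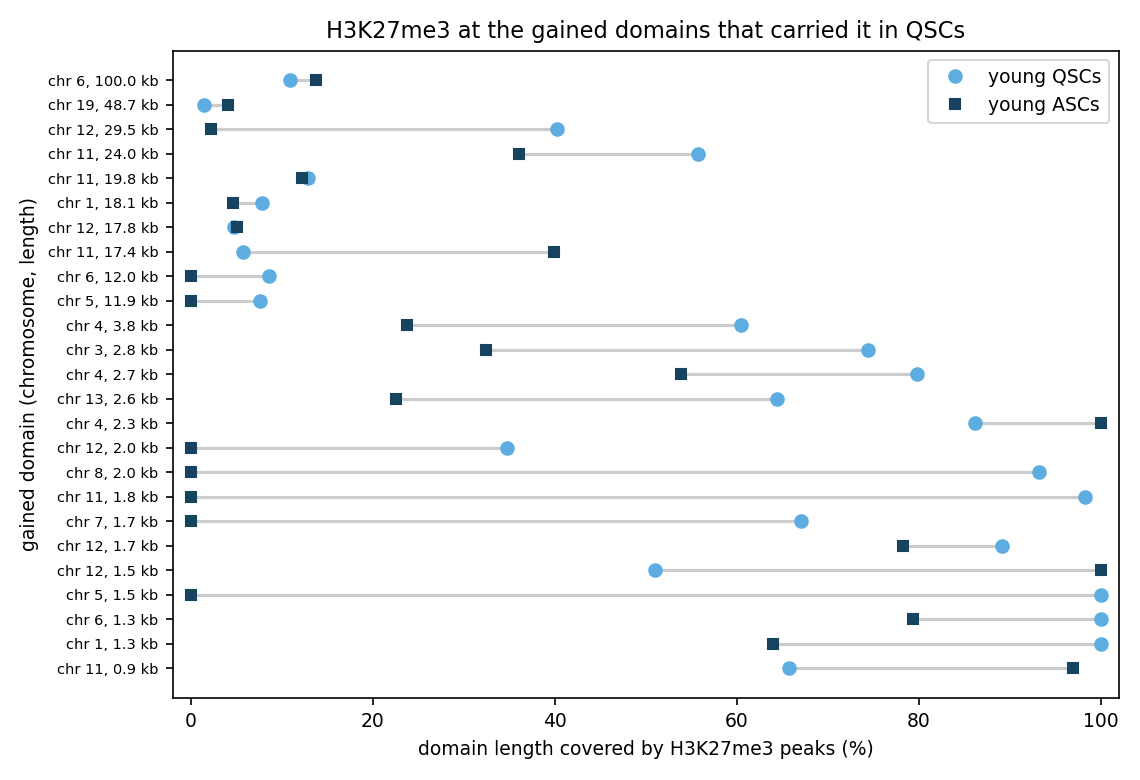
Share of the length of each of the 25 gained domains that overlapped H3K27me3 of young QSCs (x axis, %), in QSCs (circles) and ASCs (squares), in order of domain length. In 18 of the 25 the square lies to the left of the circle, and in 7 to the right.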

How the data were processed

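For each of the 8 ChIP libraries the deposited file holds the authors' peaks, each with its position, a MACS-style name and a score. Bowtie and the assembly mm9 come from the submitters' processing notes. The version of the peak caller, the input behind each list, the treatment of duplicates and the read numbers are not given in the sources used here. Scores depend on depth and were used only within a list. The 3 input libraries were not analysed here.

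The gap between peaks was the number of bases between their nearest ends. Gained peaks less than 5 kb apart were merged, and domains were compared with the H3K4me3 and H3K27me3 lists (at least 1 bp shared, or within 5 kb). The other ASC peaks with a score of at least 100 were merged in the same way. Python 3.11.15, numpy 2.4.6, pandas 2.3.3, scipy 1.17.1 and matplotlib 3.10.9 were used. The distance and merging steps were tested on simulated data and checked with bedtools 2.31.1, which gave the same 7305 gained peaks and 4289 domains. The named regions are the 10 longest domains, the 5 highest-scoring gained peaks, the 5 longest domains of each H3K4me3 class and on QSC H3K27me3, and the peaks beside each threshold. The members, lists and comparisons were chosen with earlier results of these data known. Alternatives covered the score, distance, merging gap, H3K4me3 window and overlap, and 3 chosen after seeing the data. Gene tables of another assembly were not used for positions.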

Additional observations from a re-analysis of the deposited data

How the results depend on the processing

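The libraries have no replicates and their depth is unknown. A QSC peak that fell below the lowest score of its list would make an ASC peak count as gained, and how often this happened was not tested. With every ASC peak of a score of at least 50 there were 17319 gained peaks in 7912 domains with a median length of 1688 bp, and 5186 QSC peaks lay far from ASC peaks. With a score of at least 200 there were 2285 peaks in 1650 domains with a median of 2574 bp, H3K4me3 was already in QSCs near 23.5% and new near 13.9%, and 0.909% overlapped QSC H3K27me3. With a distance of 20 kb the share with H3K4me3 already in QSCs was 19.7%, and with as many top-scoring ASC peaks as the QSC list held the median length was 2014 bp. Merging under 1 kb gave a median of 1633 bp and 17.0% with H3K4me3 already in QSCs, and merging under 10 kb gave 2260 bp and 24.6%. Counting only H3K4me3 that overlapped the domain gave 2.19% already and 5.43% new. New then included domains with a QSC peak within 5 kb, so the order of the classes depends on the window that defines them. A window of 10 kb gave 36.3% and 13.1%, and H3K4me3 peaks with a score of at least 100 gave 20% and 7.93%. H3K27me3 of QSCs within 5 kb gave 1.61%, against 3.81% of the other domains. Domains extended with all ASC H3K36me3 peaks, chosen after seeing the data, had a median of 6478 bp, 31.2% with H3K4me3 already, 12.4% with new H3K4me3 and 0.921% on QSC H3K27me3. Restricting the H3K4me3 sites to QSC scores of at least 1000, also chosen after seeing the data, gave 95.9% wider in ASCs. New H3K4me3 was at 14.5% of the gained domains without H3K4me3 of QSCs, a share also added later. The other 30 of the 59 alternative values stayed within the interval of the main value or, for counts, within 1.5 times. No paired analysis was possible because there was 1 library for each cell state and mark.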

Other observations

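The H3K4me3 and H3K27me3 lists of old QSCs, from mice aged 22 to 24 months, can be set beside the H3K4me3 classes of the gained domains. H3K4me3 of old QSCs stood within 5 kb of 872 of the 922 domains with H3K4me3 already in young QSCs (94.6%, interval 92.9% to 95.9%). At the 487 domains with H3K4me3 new in ASCs it was there at 43 (8.83%, 6.62% to 11.7%), and at the 2880 domains with none in young cells at 22 (0.764%). The matching shares of the other domains were not counted, so these shares are not shown to be particular to gained domains.

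The long domain chr2:52000800-52185983, with new H3K4me3 in ASCs, had an H3K4me3 peak of 784 bp with a score of 65 at 4.63 kb in old QSCs, on the site of the ASC peak with a score of 3184. At chr2:76560582-76793646, which had no H3K4me3 or H3K27me3 in young cells, old QSCs had an H3K4me3 peak with a score of 64 across the right end and 2 H3K27me3 peaks with scores of 54 and 56. These scores are near the lowest in the lists. Of the 25 domains on H3K27me3 of young QSCs, 11 also carried it in old QSCs. At chr11:58859207-58922966, H3K27me3 covered 0% of the domain in young QSCs, 16.4% in ASCs and 14.1% in old QSCs. Young QSCs did have H3K27me3 further along the same ASC H3K36me3 run, past the right end of the domain.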
